A study of Mus musculus with 10 samples.

Results

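Smooth muscle and pericyte genes were followed in the ovary through 10 genes, chosen by symbol from textbook knowledge of contractile cells and of the cells that coat small vessels. All 10 were found among the 22891 genes of the deposited table. All 10 were among the 15629 genes that were tested, those whose mean log2 value reached 3.32, the log2 of 10. The libraries came from total RNA of whole ovaries of mice aged 3 weeks, on a C57/Bl6/N;129SvEv7 background, without hormone stimulation. There were 5 libraries with the genotype Control and 5 with the genotype Uba3 cKO. The protein UBA3 is the catalytic part of the enzyme that activates NEDD8, and the series title places the work in a study of neddylation and oocyte quality. The labels name neither the alleles nor the cells in which Uba3 was targeted, and they do not say whether the control ovaries carried a floxed allele or whether animals were pooled.

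Smooth muscle cells shorten when calmodulin-bound myosin light chain kinase phosphorylates the regulatory light chain of smooth muscle myosin, which then pulls on alpha and gamma smooth muscle actin. Most genes of this apparatus are driven by serum response factor (SRF) with its partner myocardin, which bind a sequence named the CArG box. In the ovary, contractile cells form the outer theca around growing follicles and the walls of arteries, and some stromal cells carry the same actin. Pericytes share part of this programme, wrap capillaries and small venules, and are held to the endothelium by platelet-derived growth factor B acting on the receptor PDGFRB.

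Promoter sequences are shown for 3 of the genes, 1 each from the contractile, actin-binding and pericyte genes, so that a window with near matches to the SRF motif can be read beside windows without one. RefSeq promoters (250 bases before to 50 after the start, build GRCm38.p6) were matched by symbol for 6 of the 10 genes: Acta2, Mylk, Cnn1, Des, Rgs5 and Cspg4. The first sequence is from the minus strand at chr19:34255324-34255623, the second from the plus strand at chr9:22099003-22099302 and the third from the plus strand at chr1:169655251-169655550. Capitals mark matches to the CArG box with exactly 1 core base that is not A or T.
Acta2: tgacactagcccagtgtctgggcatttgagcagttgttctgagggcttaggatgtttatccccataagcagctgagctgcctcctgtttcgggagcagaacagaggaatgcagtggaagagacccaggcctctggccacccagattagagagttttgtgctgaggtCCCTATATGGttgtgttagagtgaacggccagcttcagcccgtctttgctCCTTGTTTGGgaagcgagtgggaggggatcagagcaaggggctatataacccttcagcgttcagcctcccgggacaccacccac
Cnn1: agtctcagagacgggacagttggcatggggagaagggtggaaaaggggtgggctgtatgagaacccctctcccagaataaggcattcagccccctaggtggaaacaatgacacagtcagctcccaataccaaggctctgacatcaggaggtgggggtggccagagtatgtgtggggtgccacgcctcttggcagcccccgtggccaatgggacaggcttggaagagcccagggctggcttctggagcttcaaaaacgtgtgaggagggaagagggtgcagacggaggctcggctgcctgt
Rgs5: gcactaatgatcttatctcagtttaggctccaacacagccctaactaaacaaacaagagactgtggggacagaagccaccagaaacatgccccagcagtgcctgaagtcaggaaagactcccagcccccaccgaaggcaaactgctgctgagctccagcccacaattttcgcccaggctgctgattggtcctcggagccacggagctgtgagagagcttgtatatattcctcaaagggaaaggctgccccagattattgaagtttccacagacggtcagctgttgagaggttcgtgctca
The Acta2 window held 2 such near matches, CCCTATATGG beginning 84 bases before the start and CCTTGTTTGG beginning 34 bases before it. The Cnn1 and Rgs5 windows held 0, as did those of Mylk, Des and Cspg4. A full CArG box was found in 0 of the 6 windows and in 1.63% of the 32851 promoters of the same length. A near match was found in 8.50% of all promoters, and 2 or more in 0.679%. The MCAT motif (CATTCC, both strands) occurred in the windows of Acta2 and Mylk and in 14.7% of all promoters. The TATA motif TATAAA (both strands), held by 13.6% of all promoters, was in 0 of the 6. The GC box (GGGCGG, both strands), held by 35.7%, was in those of Des and Cspg4. The motifs differ in letters, and a match describes the sequence only.

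Each value is a normalized expression level on a log2 scale whose transform is not named. Fold values and levels per kilobase given here assume that a difference of 1 unit is a 2-fold difference. Whether that holds for low values was not tested. The number of reads behind the values is unknown. Library medians lay between 6.29 and 6.44. Uba3 itself had a mean of 10.12 in both groups, with SDs of 0.18 and 0.069 (n = 5 each, two-sided exact permutation p = 1), so it did not separate the labelled groups, and groups are named as labelled. All 8 granulosa and all 10 oocyte markers of the fixed lists were among the tested genes, as the labelled tissue calls for. Nothing in the labels says that each library is a separate animal, so p-values measure the spread between these libraries. In whole-organ RNA, fewer cells of a type and less RNA per cell cannot be told apart.

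The 4 genes of the contractile apparatus had the highest levels of the set per kilobase of exon, and their group means differed by no more than 0.054 log2 units. Acta2, alpha smooth muscle actin, had control values of 12.41, 11.70, 11.91, 11.59 and 11.69 in replicates 1 to 5. Under the Uba3 cKO label its values were 12.10, 11.98, 11.94, 12.17 and 11.36. The highest Acta2 value was in a control library and the lowest in a library labelled Uba3 cKO, but the groups overlapped throughout. The control mean was 11.86 ± 0.33 and the Uba3 cKO mean 11.91 ± 0.32 (SD, n = 5 each). The log2 difference was 0.052 (standard error 0.17, 95% interval from -0.31 to 0.42, limma adjusted p = 1), which is a 1.04-fold ratio with bounds of 0.805 and 1.33.

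Myh11, the smooth muscle myosin heavy chain, had control values of 10.84, 9.95, 10.04, 10.003 and 10.17. Its values in the Uba3 cKO libraries were 10.15, 10.29, 9.997, 10.68 and 9.62. Control replicate 1 and Uba3 cKO replicate 4 thus stood above the other libraries, and Uba3 cKO replicate 5 below them. The log2 difference of Myh11 was -0.054 (standard error 0.19, 95% interval from -0.48 to 0.37, limma adjusted p = 1). Mylk, the myosin light chain kinase, ran from 10.75 to 11.34 in controls and from 10.60 to 11.14 in the Uba3 cKO libraries. Its difference of 0.025 had an interval from -0.24 to 0.29. The highest Mylk value was in control replicate 1 and the lowest in Uba3 cKO replicate 5, and the groups overlapped.

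Actg2, gamma smooth muscle actin of visceral and vascular walls, had a control range from 8.37 to 8.89. Under the Uba3 cKO label 4 libraries lay between 8.62 and 8.97 and replicate 5 at 7.77, below all the other libraries. The means were 8.61 ± 0.19 and 8.62 ± 0.49 (SD, n = 5 each), with a difference of 0.0081 and an interval from -0.41 to 0.43. Without Uba3 cKO replicate 5 the difference was 0.22. Acta2 and Actg2 encode closely related actins, yet their annotated transcripts shared 0 stretches of 100 bases with each other or with those of any other gene, so reads of that length would not be ambiguous between annotated transcripts.

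Cnn1, Des and Tagln encode proteins of actin binding and of the filament network. Cnn1, calponin, an actin-binding protein of differentiated smooth muscle, ran from 8.01 to 8.47 in controls and from 7.88 to 8.50 in the Uba3 cKO libraries, with a difference of -0.0088 (interval from -0.27 to 0.26). Des, desmin, the intermediate filament of muscle, had control values of 6.93, 6.82, 7.61, 8.03 and 6.71. Its values in the Uba3 cKO libraries were 7.13, 7.12, 6.89, 6.92 and 6.63. Control replicates 3 and 4 were above all other libraries in Des, whereas the remaining 8 lay within 6.63 and 7.13. Des had the most negative difference of the 10 genes, -0.28 (standard error 0.22, interval from -0.76 to 0.21, limma adjusted p = 1), and without control replicate 4 it was -0.077.

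The libraries high in Des were not the highest in Acta2. Acta2 deviated by 0.027 from its 10-library mean in control replicate 3 and by -0.29 in control replicate 4, where Des deviated by 0.53 and 0.95. In control replicate 3 Tagln had its highest value (4.97) and Cspg4 its second highest (8.08). Desmin is also made by skeletal muscle. Of 8 skeletal muscle markers, 2 (Actn3 and Mylpf) were among the tested genes, Acta1, Ckm, Tnnt3 and Tnni2 were below the filter, and the other 2 were not analysed here. The summed level of the skeletal muscle list ran from 6.91 to 7.28 in controls, with control replicate 3 highest at 7.28 and control replicate 4 at 7.01, and from 6.85 to 7.09 in the Uba3 cKO libraries. The part of these markers in the Des values was not tested.

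Tagln, transgelin or SM22, an actin-binding protein that is usually among the abundant smooth muscle transcripts, was listed far below Acta2. Its control values were 4.75, 4.76, 4.97, 4.75 and 4.43, and its values in the Uba3 cKO libraries were 4.72, 4.82, 4.54, 4.595 and 4.39. Per kilobase of exons, Acta2 exceeded Tagln by 7.07 log2 units on average, with a range over libraries from 6.70 to 7.51. In the GENCODE M21 annotation 67.9% of the exon bases of Tagln are also exon of another gene on the opposite strand, 62.4% with the antisense gene Gm48529 and 5.43% with Pcsk7. The same share was 6.85% for Mylk, 5.86% for Des and 0% for each of the other 7 genes. Gm48529 itself ran from 2.52 to 2.75 in the table, and Pcsk7 from 8.72 to 8.84. Neither the use of strand nor the treatment of reads shared by overlapping genes is given in the sources used here, so the level of Tagln is uncertain, and the part of the overlap in it was not tested. The difference between groups was -0.12 (standard error 0.10, interval from -0.35 to 0.10); it was -0.062 without control replicate 3 and -0.20 without control replicate 5.

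Among the 3 pericyte genes the SD within groups was widest for Rgs5 and narrowest for Cspg4. Rgs5, a regulator of G protein signalling in pericytes, had control values of 7.80, 7.28, 6.97, 6.95 and 6.51. Its values in the Uba3 cKO libraries were 7.17, 7.54, 6.63, 7.82 and 6.47. High and low libraries were present in both groups, and the full range was 2.54-fold. The Rgs5 means were 7.10 ± 0.48 and 7.13 ± 0.58 (SD, n = 5 each), with a difference of 0.024 (interval from -0.57 to 0.62, limma adjusted p = 1). Leaving out 1 library moved that difference from -0.15 without Uba3 cKO replicate 4 to 0.20 without control replicate 1.

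Pdgfrb, the receptor through which the endothelium recruits pericytes, had control values of 9.75, 9.32, 9.32, 8.81 and 8.83. Its values in the Uba3 cKO libraries were 9.18, 9.58, 9.0002, 9.45 and 8.62. The 4 highest libraries, control replicates 1 and 2 and Uba3 cKO replicates 2 and 4, were the same 4 as for Rgs5. The difference was -0.038 (standard error 0.20, interval from -0.47 to 0.39). Cspg4, the NG2 proteoglycan of the pericyte surface, ran from 7.48 to 8.11 in controls and from 7.28 to 7.92 in the Uba3 cKO libraries. Its difference was -0.13 (interval from -0.46 to 0.19), and without Uba3 cKO replicate 3 it was -0.028.

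**Figure D1:**
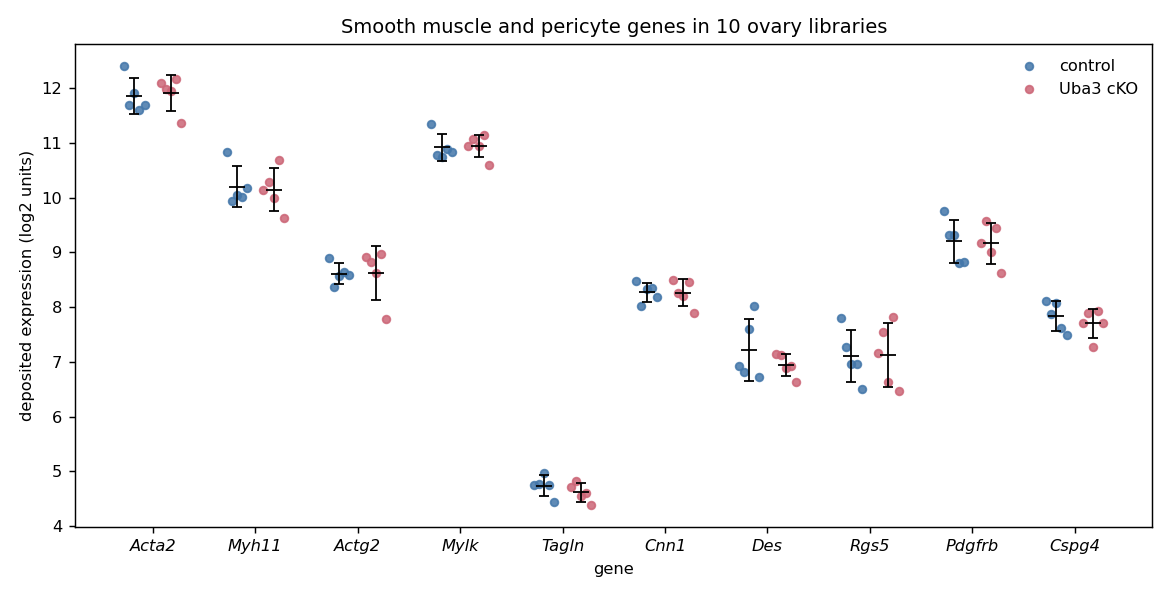
Deposited expression in log2 units (vertical axis) of the 10 genes (horizontal axis); each point is a library, in the order of replicate numbers from left to right, blue for control and red for Uba3 cKO, and black bars give mean ± SD (n = 5). The groups overlap in all 10 genes, Acta2 stands highest with means of 11.86 and 11.91, Tagln lies lowest with all libraries below 5, and 2 control libraries (7.61 and 8.03) lie above the other Des values.

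In the comparison of the groups none of the 10 genes was called. By limma with Benjamini-Hochberg adjustment 0 of the 10 passed an adjusted p of 0.05, where the background over all tested genes was 0%, and 0 of the 10 had an unadjusted p under 0.05, where the background was 1.79%. The groups overlapped in 10 of 10 genes; over all tested genes 0.32% did not overlap. The mean was higher in the Uba3 cKO libraries for 4 genes (Acta2, Actg2, Mylk and Rgs5) and lower for 6, against 50.2% higher among all tested genes. The median difference of the 10 genes was -0.023, beside 0.00034 over all tested genes. It turned to 0.024 with library quality weights, and with 1 library left out it ran from -0.113 without Uba3 cKO replicate 4 to 0.092 without Uba3 cKO replicate 5, so its sign is not settled. Exact two-sided permutation p-values of the 10 differences ran from 0.317 for Tagln to 0.976 for Actg2, where the smallest that 5 against 5 libraries allow is 0.00794. No interval of the 10 reached a difference of 1 unit, and 8 stayed inside 0.5 units, the exceptions being Des and Rgs5. The interval of Des reached down to a ratio of 0.589, and that of Rgs5 ran from 0.675 to 1.53.

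**Figure D2:**
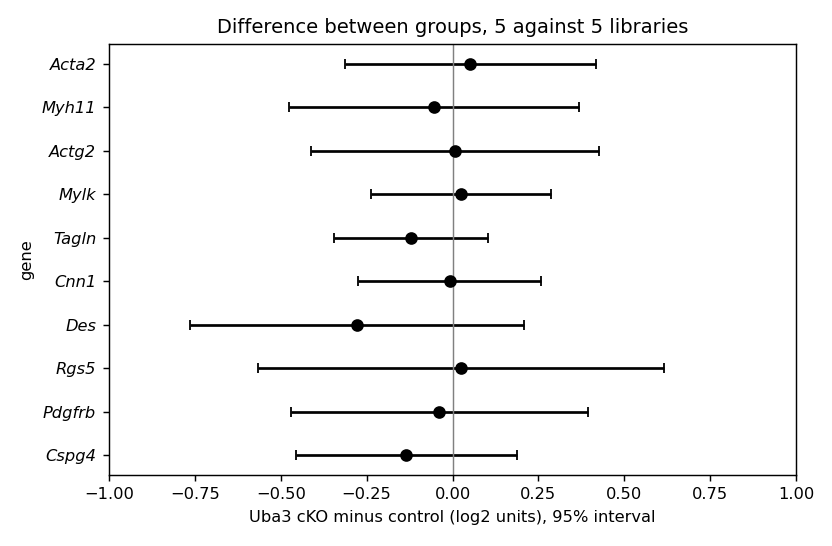
Difference between the groups (Uba3 cKO minus control, log2 units, horizontal axis) for each gene (vertical axis), with 95% intervals from limma over 5 against 5 libraries. All 10 intervals include 0, and those of Des (-0.76 to 0.21) and Rgs5 (-0.57 to 0.62) are the widest.

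Levels of different genes were compared per kilobase of annotated exon, as the mean over 10 libraries on the log2 scale. Acta2 stood highest at 10.75, with every library (10.23 to 11.27) above every library of each other gene. Actg2 (7.98), Mylk (7.44), Myh11 (7.25), Cnn1 (6.82) and Pdgfrb (6.73) followed, and each overlapped its neighbours in range. Des (5.17), Rgs5 (4.93) and Cspg4 (4.19) formed the lower part, each again overlapping the next, and Tagln (3.68) came last, with the limit given above. Between Pdgfrb (6.17 to 7.30) and Des (4.72 to 6.12) the ranges did not overlap. Within single libraries Acta2 exceeded Actg2 by 2.77 ± 0.19 units per kilobase (SD, n = 10), and Myh11 lay 0.19 units per kilobase below Mylk on average, a difference that ran from -0.42 to 0.11 over libraries. These lengths come from an annotation on another build than the one named for the data.

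The set varied more between libraries than most genes of like level. The median SD of the 10 genes over the 10 libraries was 0.33, against 0.14 over all tested genes. Among tested genes within 0.5 log2 units of its own mean, Rgs5 had a larger SD than 99.0%, Myh11 than 98.8%, Pdgfrb than 97.5%, Des than 97.4%, Acta2 than 97.2% and Actg2 than 96.8%. The corresponding values were 90.2% for Mylk, 85.3% for Cspg4, 76.0% for Cnn1 and 74.4% for Tagln. These percentages describe the table and were not tested.

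The same few libraries supplied the extremes. Uba3 cKO replicate 5 had the lowest value of 9 of the 10 genes, the exception being Cspg4, and control replicate 1 had the highest value of 5 (Acta2, Myh11, Mylk, Pdgfrb and Cspg4). Among all tested genes 11.6% were lowest in Uba3 cKO replicate 5 and 10.03% highest in control replicate 1. Uba3 cKO replicate 4 was highest for Actg2 and Rgs5 and was among the top 2 libraries for 5 of the 10 genes.

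Other genes of the programme had their extremes in these libraries in part. Of 24 other contractile genes 12 were highest in control replicate 1 and 8 were lowest in Uba3 cKO replicate 5. Of 14 tested pericyte genes beyond the set 3 were highest in control replicate 1 and 10 were lowest in Uba3 cKO replicate 5. Of 7 regulators around SRF and myocardin 3 were highest in control replicate 1 and 0 lowest in Uba3 cKO replicate 5. Of 13 genes that control the myosin light chain 2 were highest in control replicate 1 and 1 was lowest in Uba3 cKO replicate 5.

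Markers of some other cells had extremes in these libraries too, and markers of others did not. In Uba3 cKO replicate 5 the lowest value was found for 9 of 10 oocyte markers, 5 of 7 macrophage markers, 4 of 8 theca and steroidogenic markers and 4 of 12 endothelial markers. The same library was lowest for 1 of 7 stromal fibroblast, 0 of 8 granulosa and 0 of 7 surface epithelium markers. Lists were also compared by the mean deviation of their genes from the 10-library means. In Uba3 cKO replicate 5 it was -0.39 for the stromal fibroblast list (rank 9 of 10 from the highest) and -0.34 for the endothelial list. For the surface epithelium list it was 0.19. That library was also lowest for 2 of 4 tested oviduct, 1 of 2 tested adipocyte and 0 of 2 tested skeletal muscle markers. In control replicate 1 the highest value was found for 6 of 8 theca and steroidogenic markers and 0 of 10 oocyte markers. That library was highest for 3 of 7 macrophage, 1 of 7 stromal fibroblast, 0 of 12 endothelial and 0 of 8 granulosa markers. The mean deviation in control replicate 1 was 0.38 for the stromal fibroblast list, 0.22 for the endothelial list and -0.0021 for the granulosa list. The stromal fibroblast and endothelial lists had their highest mean deviations in Uba3 cKO replicate 4 (0.46 and 0.49). All 12 endothelial, all 7 stromal fibroblast and all 8 theca markers were among the tested genes. The mean deviation of the oocyte list was -0.54 in Uba3 cKO replicate 5 and -0.33 in control replicate 1, and its summed level ran from 14.10 to 14.72 in controls and from 13.87 to 14.74 in the other group. Granulosa markers went the other way in Uba3 cKO replicate 5, where their list had its highest mean deviation (0.13) and its highest summed level (18.02). The summed level of the endothelial list ran from 11.03 to 11.64 in controls and from 11.01 to 11.88 in the Uba3 cKO libraries. That of the stromal fibroblast list ran from 13.39 to 14.41 and from 13.50 to 14.51, and that of the theca list from 13.47 to 14.65 and from 13.85 to 14.38. The part of these cells in the levels of the 10 genes was not tested.

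**Figure D3:**
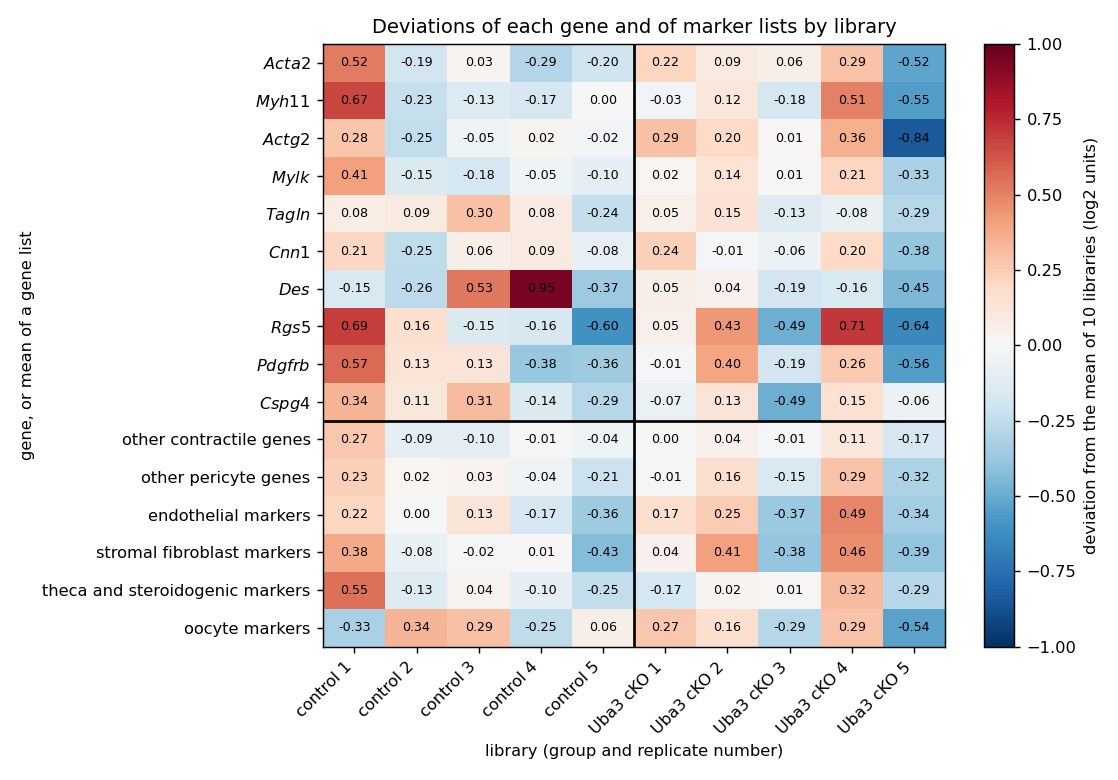
Deviation of each gene, and of the mean of 6 marker lists, from its mean over 10 libraries (log2 units, color and printed values; rows are genes or lists, columns are libraries, with controls left of the vertical line). Control replicate 1 and Uba3 cKO replicate 4 are above the mean in most rows and Uba3 cKO replicate 5 is below it in every row, while Des is high in control replicates 3 (0.53) and 4 (0.95).

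Correlations over the 10 libraries showed which of the genes moved together. All 45 pairs were computed with a permutation test (100000 resamples) and Benjamini-Hochberg adjustment over the pairs, and 19 had an adjusted p under 0.05 by Pearson's r and 8 by Spearman's rho. The labels give no batch, and each group of 5 is too small for a value of its own. Genes of 1 library share its normalization, cell makeup and depth. The count was 8 without control replicate 1, 8 without Uba3 cKO replicate 4 and 5 without Uba3 cKO replicate 5; leaving 1 out also lowers the number of libraries to 9. On values centred on the mean of each group 19 pairs had an adjusted p under 0.05.

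Within the contractile genes Myh11 and Mylk, the motor and the kinase that switches it on, had the highest Pearson's r over the 10 libraries (r = 0.94, permutation p = 0.0001, adjusted p = 0.0045; rho = 0.82, permutation p = 0.00609, adjusted p = 0.0391). By rho the highest was Actg2 with Mylk (rho = 0.92, permutation p = 0.00048, adjusted p = 0.0146; r = 0.82). Without the 2 libraries farthest from the median of Myh11, Myh11 and Mylk had r = 0.84 (exact permutation p = 0.0115). Actg2 and Cnn1 had r = 0.91 (permutation p = 0.00029, adjusted p = 0.00652; rho = 0.87, permutation p = 0.0018, adjusted p = 0.0245) and kept r = 0.85 without the 2 libraries farthest from the median of Actg2 (exact permutation p = 0.0089). Acta2 and Myh11 had r = 0.88 (permutation p = 0.00074, adjusted p = 0.00792; rho = 0.77, permutation p = 0.0131, adjusted p = 0.0591). Without control replicate 1 and Uba3 cKO replicate 5 that value was 0.66 (exact permutation p = 0.0557). With a single library left out it stayed between 0.80 and 0.91, and the adjusted p stayed under 0.05 in all 10 cases, with 0.0452 as the highest (exact permutation test).

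Among the pericyte genes Rgs5 and Pdgfrb were closest, with r = 0.90 (permutation p = 0.00084, adjusted p = 0.00792) and rho = 0.92 (permutation p = 0.00065, adjusted p = 0.0146). Without control replicate 1 and Uba3 cKO replicate 4 it was r = 0.87 (exact permutation p = 0.0063). Rgs5 with Cspg4 (r = 0.71, permutation p = 0.0205, adjusted p = 0.0485; rho = 0.71, permutation p = 0.0264, adjusted p = 0.0744) was weaker, and without control replicate 1 and Uba3 cKO replicate 4 it was 0.61 (exact permutation p = 0.112). The adjusted p of this pair was above 0.05 in 9 of the 10 cases with a single library left out, so the call is marginal. Pdgfrb with Cspg4 had r = 0.72 (permutation p = 0.019, adjusted p = 0.0476) and rho = 0.75 (permutation p = 0.0169, adjusted p = 0.0653). Its adjusted p for r was likewise above 0.05 in 9 of the 10 cases, so that call is marginal too. Between the classes, Acta2 and Rgs5 had r = 0.76 (permutation p = 0.0106, adjusted p = 0.0318; rho = 0.82, permutation p = 0.00554, adjusted p = 0.0391), which fell to 0.56 without control replicate 1 and Uba3 cKO replicate 5 (exact permutation p = 0.157). Its adjusted p was above 0.05 in 4 of the 10 cases with a single library left out: control replicates 1 and 5 and Uba3 cKO replicates 4 and 5. Some other pairs between the classes had a higher r. Acta2 with Pdgfrb had r = 0.84 (permutation p = 0.00241, adjusted p = 0.0151), and 0.62 without control replicate 1 and Uba3 cKO replicate 5 (exact permutation p = 0.104). Myh11 with Rgs5 had r = 0.82 and Mylk with Rgs5 r = 0.80 (permutation test, adjusted p = 0.0151 and 0.0177). Others had a lower r: 0.20 to 0.47 for Cspg4 with Acta2, Myh11, Mylk and Actg2, and 0.67 and 0.66 for Actg2 with Rgs5 and Pdgfrb.

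Neither Des nor Tagln had any pair with an adjusted p under 0.05. The median r with the other 9 genes was 0.070 for Des, 0.46 for Tagln, 0.43 for Cspg4 and 0.81 for Acta2. The median of Tagln was thus no lower than that of Cspg4, which had 2 such pairs, both marginal. Des and Acta2 had r = -0.022 (permutation p = 0.953, adjusted p = 0.984; rho = 0.28, permutation p = 0.425, adjusted p = 0.521), with -0.28 when the 2 libraries farthest from the median of Acta2 were left out. Over all 10 libraries Des had r = 0.070 with Rgs5, -0.010 with Pdgfrb and 0.15 with Cspg4. Without control replicates 3 and 4, the 2 farthest from the median of Des, these were 0.61, 0.67 and 0.28 (exact permutation p = 0.118, 0.071 and 0.506). Tagln and Des had r = 0.66 (permutation p = 0.0386, adjusted p = 0.079; rho = 0.70, permutation p = 0.03, adjusted p = 0.075), with 0.49 when the 2 libraries farthest from the median of Tagln were left out. Without control replicate 4 the correlation of Tagln and Des was 0.85 (exact permutation test, adjusted p = 0.0112).

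**Figure D4:**
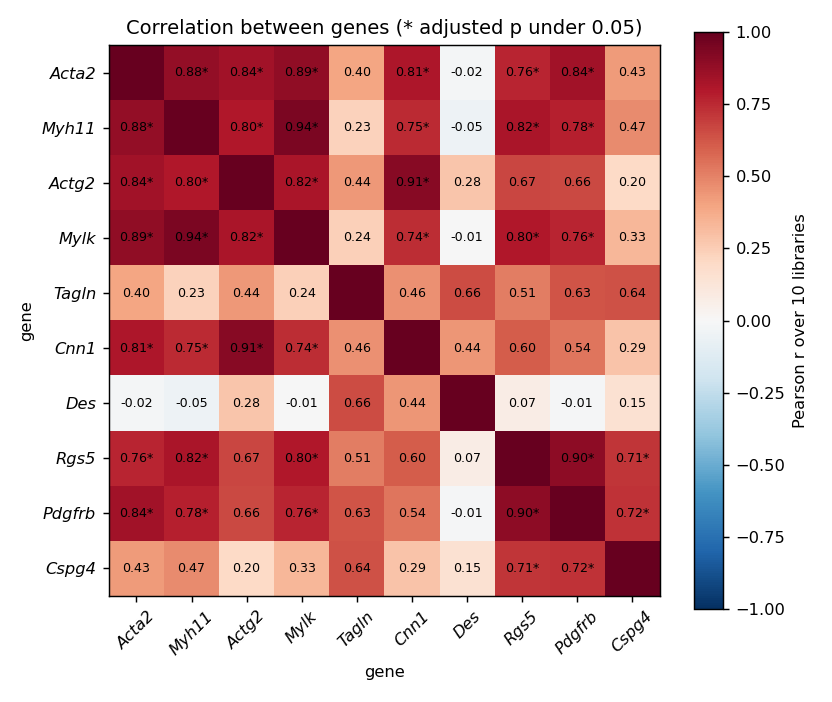
Pearson correlation over 10 libraries for each pair of the 10 genes (both axes), as color and printed values, with a star where the permutation p adjusted over 45 pairs is under 0.05. The 19 starred pairs join Acta2, Myh11, Actg2, Mylk, Cnn1, Rgs5, Pdgfrb and Cspg4, and the rows of Tagln and Des hold 0 stars.

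Genes with the most similar pattern were sought among 9207 genes with a mean of at least 8, by Pearson's r over 10 libraries of values centred on the group means, given as a description. The nearest to Myh11 outside the set were Pde5a (0.97), a phosphodiesterase that breaks down cyclic GMP in smooth muscle, and Lamb1 (0.93), a laminin chain of basement membranes. Skap2 (0.90), Phldb2 (0.90), Gng12 (0.90) and Enpep (0.90), an aminopeptidase of the cell surface, followed. The nearest to Rgs5 were Mrc2 (0.99), a collagen receptor, Col1a1 (0.99) and Col1a2 (0.99), the chains of type I collagen, Emilin1 (0.98), Lama2 (0.98) and Col6a3 (0.98). Of these 12 genes, Pde5a is on the list of other pericyte genes and Col1a1 and Col1a2 are on the stromal fibroblast list. The r of 0.90 between Rgs5 and Pdgfrb on the same centred values lies below those of these 6 genes with Rgs5. The 6 were picked as the highest among 9207 genes, so no conclusion is drawn from that order.

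Other genes of contraction had group means as close as those of the set. Of 24 other contractile genes, 11 were higher on average in the Uba3 cKO libraries and 13 lower, with a median difference of -0.031 and 0 called by limma or at an unadjusted p under 0.05. Fhl1, a LIM-domain protein of muscle, had a control mean of 11.32 ± 0.30 and a Uba3 cKO mean of 11.10 ± 0.30 (SD, n = 5 each; difference -0.22, limma adjusted p = 1). Among 13 genes that control the myosin light chain, 6 had the higher and 7 the lower mean (median -0.0092), with 0 called. Rhoa, the GTPase that restrains the light chain phosphatase, stood at 12.12 ± 0.054 and 12.06 ± 0.056, and Ppp1r12a, the targeting subunit of that phosphatase, at 10.94 ± 0.13 and 10.88 ± 0.085.

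The regulators were close too. Of 7 genes around SRF and myocardin, 4 had the higher and 3 the lower mean in the Uba3 cKO libraries (median 0.0021), with 0 called. Srf stood at 10.67 ± 0.12 and 10.71 ± 0.11, and Fhl2, an SRF cofactor, at 8.37 ± 0.29 and 8.46 ± 0.18 (SD, n = 5 each).

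Pericyte genes outside the set numbered 16, of which 14 were tested; Higd1b and Vtn were below the filter. Of the 14, 8 had the higher and 6 the lower mean in the Uba3 cKO libraries, with a median of 0.017 and 0 called. Heyl, a transcriptional target of Notch3 in mural cells, stood at 11.37 ± 0.33 and 11.11 ± 0.083 (SD, n = 5 each), a difference of -0.26 (standard error 0.13, unadjusted p = 0.0624 and adjusted p = 1 by limma). Cox4i2, a subunit of cytochrome oxidase found in pericytes, stood at 6.09 ± 0.14 and 5.94 ± 0.16. Among the PDGF ligands and the sister receptor Pdgfra, 2 of 5 had the higher mean (median -0.033). Pdgfb, the ligand of PDGFRB, stood at 10.45 ± 0.15 and 10.34 ± 0.12, a difference of -0.12 (interval from -0.29 to 0.058, limma adjusted p = 1).

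No marker of the cells that lie beside mural cells was called. Of 12 endothelial markers 11 had the higher mean in the Uba3 cKO libraries, with a median difference of 0.069 and 0 at an unadjusted p under 0.05. Tek, the angiopoietin receptor, stood at 6.74 ± 0.24 and 6.94 ± 0.28, and Flt1, a VEGF receptor, at 6.26 ± 0.24 and 6.39 ± 0.45 (SD, n = 5 each). Of 7 stromal fibroblast markers 6 had the higher mean (median 0.041), with Col1a2 at 12.32 ± 0.45 and 12.50 ± 0.55. Of 8 theca and steroidogenic markers 2 had the higher mean (median -0.092), with Hsd3b1 at 13.52 ± 0.50 and 13.72 ± 0.24. Markers of these lists vary together between libraries, so these counts are not independent observations.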

How the data were processed

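The authors deposited normalized values per Ensembl gene on a log2 scale; the deposited table does not name its transform. The tools fastp, STAR, featureCounts and DESeq2 and the build GRCm39 are named without versions or roles, per the submitters' processing notes. RNA was extracted with a PicoPure kit and sequenced from TruSeq libraries, per the labels' protocols. Columns were matched to samples by the names in the labels. Symbols were found for 22188 of 22891 identifiers. Exon lengths and the exon overlaps between genes came from GENCODE M21 (GRCm38). No counts are held, so depth per library is unknown.

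The comparison of 5 against 5 libraries used limma (3.58.1, R 4.3.3) on the deposited log2 values, with an intensity trend and no covariate. Genes with a mean log2 value of at least 3.32 (the log2 of 10) were kept. Benjamini-Hochberg adjustment ran over 15629 genes at 0.05. Permutation tests of Uba3 and of the 10 differences were exact. Scripts were tested on simulated data. The 10 genes, the 15 further lists (146 members, 143 found) and the tests were chosen with earlier results of these data known. Named genes are Uba3, the 10 genes, per list the 2 members with the smallest p (none was called), and the 6 genes most like Myh11 and Rgs5. Of the genes this rule takes, 1 is left out of the text. Values of the genes that rule names in lists of granulosa, oocyte, macrophage, surface, oviduct and adipocyte markers are in the closing section. Alternatives were another filter or none, the replicate block, library weights, median centring, quantile normalization, no trend, a transcript length covariate and each library left out. Same-numbered libraries of the groups had deviations correlated from -0.338 to 0.318, so numbers were not treated as pairs.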

Additional observations from a re-analysis of the deposited data

Results flagged for a closer look

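Of 22 sets of 5 values (the 10 genes and Uba3 in each group), 3 held a library whose gap to its nearest neighbor exceeded Dixon's limit of 0.71 of the range. Chance gives about 1 in 20 for a single set. The sets share libraries, and Myh11 and Mylk were flagged in the same library, so the flags are not independent. Acta2 in Uba3 cKO replicate 5 stood at 11.36, below the next value of 11.94. Myh11 in control replicate 1 stood at 10.84, above the next value of 10.17, and Mylk in that library stood at 11.34, above 10.88. Without control replicate 1 the Myh11 difference turned to 0.11, and without Uba3 cKO replicate 5 the Acta2 difference was 0.19; neither was called by limma (adjusted p = 1).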

How the results depend on the processing

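None of the 10 genes was called by limma under any of the 8 other fits or the 10 fits that left out 1 library. With the transcript length slope as a covariate 1 gene was called among all those tested, against 0 otherwise. Cnn1 turned to 0.019 and Pdgfrb to 0.034 with library quality weights, and Cnn1 to 0.000414 with the length covariate. Leaving out 1 library, differences ran from -0.015 to 0.19 for Acta2, -0.19 to 0.11 for Myh11, -0.080 to 0.22 for Actg2, -0.026 to 0.13 for Mylk, -0.073 to 0.086 for Cnn1, -0.15 to 0.20 for Rgs5, -0.14 to 0.098 for Pdgfrb and -0.056 to 0.066 for Uba3. Tagln (-0.20 to -0.062), Des (-0.40 to -0.077) and Cspg4 (-0.22 to -0.028) kept their direction. The number of correlated pairs ran from 5 to 18 with 1 library left out, and was 17 to 22 otherwise (22 with the transcript length slope regressed out, a setting chosen after seeing the data); the correlation of Acta2 and Des was 0.0095 on group-centred values and ran from -0.32 to 0.40 with 1 library left out. The cause of these shifts was not tested. Median centring left Rgs5 and Cspg4 at 0.70 (adjusted p = 0.0578) and Pdgfrb and Cspg4 at 0.71 (adjusted p = 0.053).

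With the replicate block 0 genes were called. The median difference of the 10 genes was -0.023, as without the block. The block could not change it, because every replicate number is held by 1 library of each group. Only 2 of 5 same-numbered pairs had a correlation over 0.1, and 1 of 5 control libraries correlated best with its own number. Tagln had no value under the stricter filter (a mean log2 value of at least the log2 of 50), and depth could not be assessed.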

Other observations

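Values of further listed genes are given as the control mean and then the Uba3 cKO mean (SD, n = 5 each), none of them called by limma. Inhbb, an inhibin and activin subunit, stood at 14.31 ± 0.30 and 14.60 ± 0.45, and Hsd17b1, an estradiol-forming enzyme of granulosa cells, at 13.10 ± 0.17 and 13.21 ± 0.13. The oocyte genes Figla and Bmp15 stood at 5.36 ± 0.48 and 5.16 ± 0.23 and at 11.08 ± 0.22 and 11.01 ± 0.22. The macrophage genes Mrc1 and C1qb stood at 6.47 ± 0.24 and 6.68 ± 0.35 and at 6.57 ± 0.20 and 6.46 ± 0.20. Lrrn4 and Msln of the surface epithelium stood at 7.45 ± 0.33 and 7.61 ± 0.36 and at 8.84 ± 0.49 and 8.79 ± 0.37. Ovgp1, the oviduct glycoprotein, stood at 4.70 ± 0.35 and 4.83 ± 0.73, and Rsph1 of motile cilia at 4.27 ± 0.099 and 4.33 ± 0.12. Plin1 and Cfd of fat cells stood at 5.56 ± 0.26 and 5.75 ± 0.39 and at 5.30 ± 0.66 and 5.74 ± 0.99. Actn3 and Mylpf of skeletal muscle stood at 6.42 ± 0.24 and 6.28 ± 0.21 and at 5.03 ± 0.081 and 4.96 ± 0.12. Pdgfa, a PDGF ligand, stood at 8.15 ± 0.28 and 8.07 ± 0.16. Insl3 of theca cells stood at 3.58 ± 0.27 and 3.47 ± 0.084, and Col1a1 at 11.41 ± 0.42 and 11.54 ± 0.59. By list, the mean was higher in Uba3 cKO for 5 of 8 granulosa, 2 of 10 oocyte, 2 of 7 macrophage, 2 of 7 surface epithelium, 3 of 4 tested oviduct, 2 of 2 tested adipocyte and 0 of 2 tested skeletal muscle markers, with 0 at an unadjusted p under 0.05 by limma in each.

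The genes nearest to Des were listed after its values were seen. Over 9207 genes the values most like Des, centred on group means, were those of Eif1ax (0.92) and Eif4e (0.90), factors of translation initiation, Sgk1 (0.88), a serum-induced kinase, Dnaja1 (0.86), Ankrd49 (0.85) and Kdelr3 (0.85).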
